A study of Homo sapiens with 2 samples.

Results

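A set of 10 cytokine genes was followed in human colon organoids: the interleukin genes IL6, IL11, IL23A, IL32, IL15 and IL7, the leukaemia inhibitory factor gene LIF, the colony-stimulating factor genes CSF1 and CSF2, and the membrane-bound chemokine gene CX3CL1. They were chosen by symbol, with earlier results of these data known, and all 10 were found among the 36601 genes of the feature lists. The organoids came from the established human iPS cell line 1383D6, which was taken through Activin A and FGF2, embedded in Matrigel and differentiated with EGF, Forskolin, PD98059 and 5-Aza-2'-Deoxycytidine, where the label text breaks off at a further agent. In one group, 3CK, the organoids were then exposed for 8 days to a mixture of TNF-α, IFN-γ and IL-1β, and in the other, CNT, they were not. Sources used here give no dose for the 3 cytokines, and the labels name no added immune cells. By its title the series sets up such organoids to model ulcerative colitis.

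Each group is 1 single-cell library from 1 cell line, so there is no replicate check, no test across samples was possible, and every interval given is a 95% interval for counting error only. After filtering, 2487 CNT cells with 101831571 unique molecular identifiers (UMIs, each standing for 1 captured transcript) and 1398 3CK cells with 91860414 UMIs remained, with medians of 28911 and 62746 UMIs per cell. The libraries shared 0 barcodes. Levels are given as CPM, the UMIs of a gene scaled to a common total. The libraries were read at the 3' end of transcripts, so the counts are per captured transcript and hold no term for gene length.

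The sample titles speak of colon epithelial cells, but both libraries also held collagen-expressing cells, so cells were divided by marker transcripts. Epithelial cells had at least 2 UMIs of EPCAM, the epithelial adhesion molecule, per 10000. Mesenchymal cells had at least 5 per 10000 of the collagen genes COL1A1, COL1A2 and COL3A1 together and under 1 of EPCAM. The epithelial gate held 1660 CNT and 1016 3CK cells, the mesenchymal gate 574 and 124, and 253 and 258 cells fell in neither. The gates differ between the libraries in what they hold. Of the epithelial cells, 497 in CNT (29.9%) and 49 in 3CK (4.82%) also reached the collagen minimum, and COL1A1 within the mesenchymal gate stood at 3010 and 906 CPM in CNT and 3CK. The part of these collagen differences in the results was not tested beyond the gate settings given beside them. Mesenchymal genes not used for the gate differed among themselves in these cells: DCN stood at 1210 and 1208 CPM, VIM at 3763 and 4570 CPM, LUM at 1279 and 540 CPM and PDGFRA at 76.4 and 34.8 CPM. In the same cells CDH1, the epithelial cadherin, was at 14.9 and 7.57 CPM. The keratin genes KRT8 and KRT18 did not separate the gates, with KRT18 at 4930 and 6968 CPM in mesenchymal cells. Most leukocyte markers were low. PTPRC, the pan-leukocyte gene, stood at 0.56 and 3.62 CPM in mesenchymal cells of CNT and 3CK, with 7 of 8 myeloid markers seen in each and FCGR3A at 0. The summed myeloid list was 41.6 and 119 CPM in these mesenchymal cells, and 52.1 and 63.5 CPM in epithelial cells. In the mesenchymal cells CD68 stood at 26.7 and 91.4 CPM and AIF1 at 0.71 and 11.3 CPM, while CD14 was at 13.1 and 12.0 CPM. CSF1R (0.31 and 0.44 CPM), LYZ (0.15 and 0.22 CPM) and ITGAM (0.10 and 0.11 CPM) were near 0 in both. The summed lymphoid list was 129 and 60.4 CPM in epithelial cells, nearly all of it CD3D at 124 and 54.3 CPM, and 9.11 and 4.39 CPM in mesenchymal cells. In the epithelial gate the colon transcription factor gene CDX2 stood at 80.6 and 83.3 CPM, VIL1 at 130 and 29.3 CPM, CLDN3 at 55.2 and 28.3 CPM and KRT18 at 4303 and 10938 CPM, beside a summed hepatic list (TTR, ALB, AFP, APOA1 and APOA2) of 94449 and 30653 CPM. The part of these markers in the results was not tested.

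These genes encode secreted or membrane-bound signals that act between cells. IL-6, IL-11 and LIF share the signalling receptor chain encoded by IL6ST, pair it with a chain of their own and act through JAK kinases and STAT3. IL-15 and IL-7 keep lymphocytes alive and share the receptor chain of IL2RG, CSF1 and CSF2 support macrophages and granulocytes, IL23A encodes the chain that joins IL12B to form IL-23, and CX3CL1 tethers leukocytes that carry CX3CR1. In the gut such signals pass between epithelium, stroma and immune cells, and several are known for high levels in inflamed mucosa.

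Over all kept cells every one of the 10 genes was at least 2-fold higher in 3CK than in CNT. Among all 17523 genes with more than 3 UMIs in a library and at least 1 CPM in the higher one, 6.96% were that much higher. The median log2 ratio of the 10 was 2.43, against -0.05 for all tested genes. The members were chosen with earlier results of these data known, so these counts describe them and are not a test against other genes. CSF2 (0.02 CPM in CNT) and CX3CL1 (0.91 CPM) passed the minimum level through 3CK alone. The ratios ran from 1.03 for LIF (counting interval 0.87 to 1.19) to 8.07 for CSF2 (6.21 to 11.12). LIF stood at the 2-fold line and crossed it with no filter on cells (0.97), a stricter filter (1.00), another choice of total (0.93) or equal weight per cell (0.89). The 2 other scalings moved every ratio over all cells by 0.09 and -0.10, and they moved the mesenchymal ratios by 0.18 and -0.05.

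Within the epithelial gate 9 of the 10 were at least 2-fold higher in 3CK, where 8.48% of 16809 genes were. Within the mesenchymal gate this held for 7 of the 9 that passed the minimum level, where 6.05% of 17353 genes did. In the cells of neither gate it held for 9 of 10, where 9.18% of genes did. None of the 10 was 2-fold or more lower in these comparisons, where 11.3% of genes were over all cells, 12.1% in epithelial cells, 16.7% in mesenchymal cells and 19.7% in cells of neither gate. The members that were not 2-fold higher differed by compartment: IL11 in epithelial cells, and LIF and IL7 in mesenchymal cells. IL7, CSF2 and CX3CL1 passed the minimum level in epithelial cells through 3CK alone, at 0.77, 0.03 and 0.81 CPM in CNT. CSF2 in mesenchymal cells, and CSF2 and CX3CL1 in cells of neither gate, did so too. Such genes could not be called lower under this minimum. Without its highest cell CSF2 was under the minimum in 3CK epithelial cells, at 0.93 CPM.

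**Figure D1:**
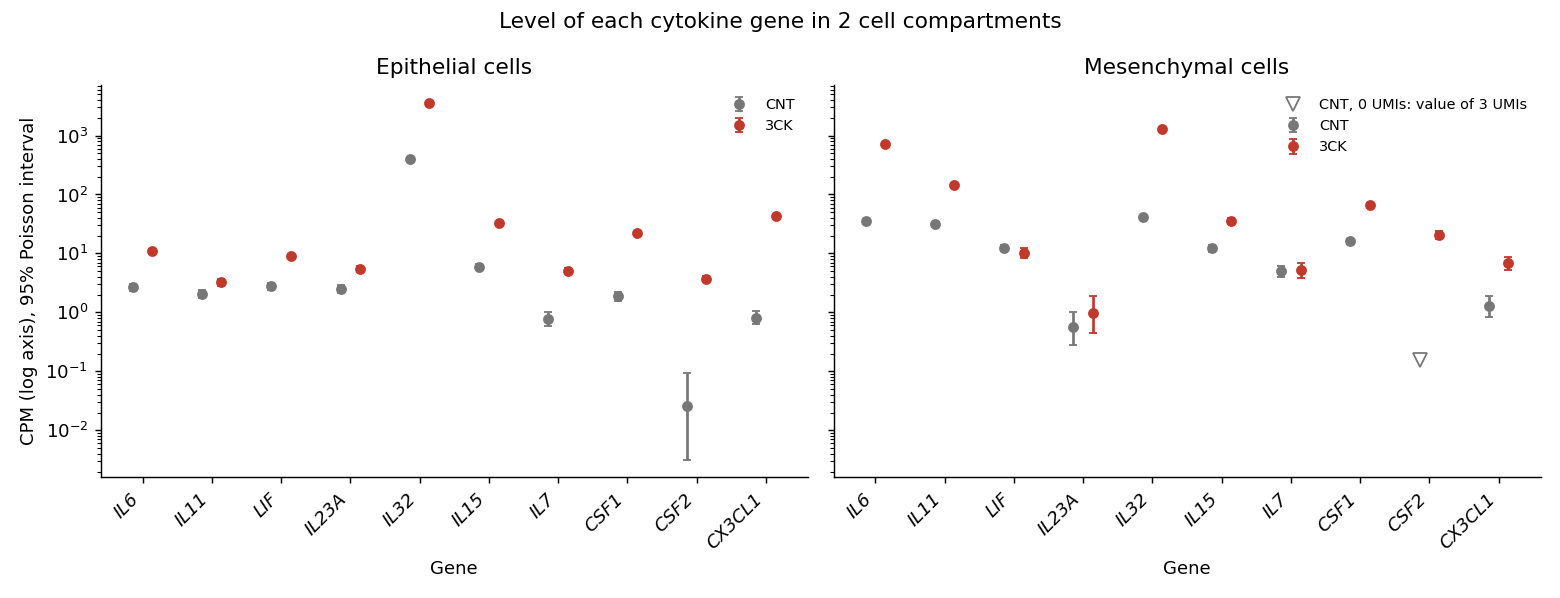
Level of each gene in epithelial (left) and mesenchymal (right) cells of CNT (grey) and 3CK (red), in CPM on a log axis, with 95% Poisson intervals. The open triangle marks the value of 3 UMIs for CSF2 in CNT mesenchymal cells, where it had 0 UMIs. IL32 was the most abundant in each panel in 3CK, and IL6 stood at 722 CPM in 3CK mesenchymal cells against 11.2 CPM in epithelial cells.

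**Figure D2:**
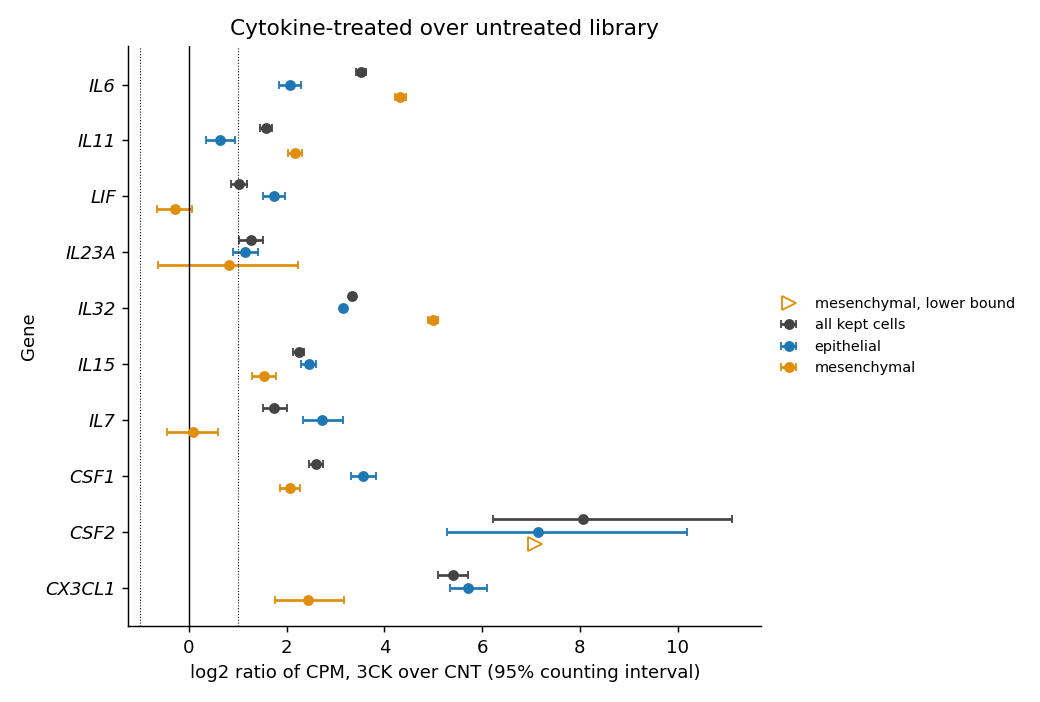
Log2 ratio of CPM, 3CK over CNT, for each gene over all kept cells (black), epithelial cells (blue) and mesenchymal cells (orange), with 95% counting intervals, where the open triangle is a lower bound and dotted lines mark a 2-fold difference. LIF and IL7 lie near 0 in mesenchymal cells and above 1 in epithelial cells, whereas IL6, IL11 and IL32 lie farther right in mesenchymal cells.

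The promoters of 5 members are in the RefSeq table used here (GRCh38.p14): IL6, IL11, IL23A, IL32 with 2 start sites, and CSF2. The 250 bases before the start were searched on both strands for the NF-κB consensus motif, the GAS motif TTCNNNGAA, the ISRE motif (GAAA, any pair of bases, GAAA), the AP-1 motif TGANTCA, the CRE motif TGACGTCA and the TATA motif TATAAA. NF-κB is the factor activated by TNF-α and IL-1β, and GAS and ISRE motifs are read by STAT factors and their partners after interferon. Of 35116 promoter windows of this length, 5.21% held the NF-κB motif, 6.57% the GAS motif, 3.02% the ISRE motif, 6.57% the AP-1 motif, 1.65% the CRE motif and 10.7% the TATA motif. The 4 windows with an NF-κB, AP-1 or CRE match are shown 5′ to 3′ on the gene's strand, up to the base before the start, with matches in capitals. The CSF2 window, which held a GAS match, and the window at the other IL32 start are described after them without their letters.
IL6 (chr7:22726950-22727199, plus strand): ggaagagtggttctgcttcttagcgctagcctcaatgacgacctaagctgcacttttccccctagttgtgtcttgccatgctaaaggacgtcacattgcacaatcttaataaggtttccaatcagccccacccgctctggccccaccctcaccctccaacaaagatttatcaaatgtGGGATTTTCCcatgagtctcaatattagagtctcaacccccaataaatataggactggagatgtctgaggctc
IL11 (chr19:55370464-55370713, minus strand): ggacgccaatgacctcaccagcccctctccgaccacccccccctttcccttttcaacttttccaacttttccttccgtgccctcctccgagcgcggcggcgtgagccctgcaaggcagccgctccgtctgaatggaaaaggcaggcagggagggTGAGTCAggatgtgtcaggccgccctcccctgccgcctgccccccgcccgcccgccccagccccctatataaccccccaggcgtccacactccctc
IL23A (chr12:56338634-56338883, plus strand): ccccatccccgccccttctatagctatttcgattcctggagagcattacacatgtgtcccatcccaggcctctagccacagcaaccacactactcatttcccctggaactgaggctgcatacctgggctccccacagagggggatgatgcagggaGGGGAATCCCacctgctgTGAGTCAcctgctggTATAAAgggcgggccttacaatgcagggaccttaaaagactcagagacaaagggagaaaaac
IL32 (chr16:3065153-3065402, plus strand): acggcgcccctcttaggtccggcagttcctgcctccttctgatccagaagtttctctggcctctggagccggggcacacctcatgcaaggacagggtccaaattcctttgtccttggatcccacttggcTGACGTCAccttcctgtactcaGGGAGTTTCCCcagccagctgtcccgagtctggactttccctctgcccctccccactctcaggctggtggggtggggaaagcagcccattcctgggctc

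In IL6 the capitals mark an NF-κB match 73 to 64 bases before the start. In IL11 they mark an AP-1 match at 96 to 90, and no NF-κB match lay in the window. IL23A held an NF-κB match at 95 to 86, an AP-1 match at 77 to 71 and a TATA match at 62 to 57. The IL32 window held a CRE match at 121 to 114 and overlapping NF-κB matches on both strands, at 99 to 90 and 98 to 89. The window at the other IL32 start held no match, and that of CSF2 held 1 GAS match, 190 to 182 bases before its start. Such a match describes the letters of the window and is not evidence of binding.

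IL6, the acute-phase interleukin, had the widest gap between compartments in 3CK, a log2 value of 6.01 (5.90 to 6.12), after 3.75 in CNT. With equal weight per cell these were 4.85 and 2.57. It stood at 2.68 and 11.2 CPM in epithelial cells of CNT and 3CK (204 and 785 UMIs), and at 35.9 and 722 CPM in mesenchymal cells (706 and 6580 UMIs). The treated mesenchymal cells were far above the other groups: the 124 cells made up 8.87% of the 3CK cells and held 69.2% of its IL6 UMIs. The log2 ratio of 3CK to CNT was 4.33 (4.22 to 4.44) in mesenchymal and 2.06 (1.84 to 2.29) in epithelial cells. The epithelial ratio became 2.79 when epithelial cells with collagen transcripts were left out. Cells with at least 5000 UMIs were thinned to that depth. This left out 598 of 1660 epithelial cells in CNT and 240 of 1016 in 3CK, and 254 of 574 and 17 of 124 mesenchymal cells. After thinning, IL6 was seen in 54 of 107 mesenchymal 3CK cells (50.5%, exact binomial interval 40.6 to 60.3) and in 32 of 320 in CNT (10.0%, 6.94 to 13.8). In epithelial cells of the same depth it was seen in 1.04% in CNT and 2.84% in 3CK. Without thinning the 3CK shares were 74.2% in mesenchymal and 18.4% in epithelial cells, at median depths of 65363 and 72198 UMIs. Free RNA in droplets can give UMIs in cells that do not express a gene, no cell type here is known to lack IL6, and the part of free RNA in the low shares was not tested.

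Cells of neither gate also carried IL6, with 11 UMIs (1.83 CPM) in CNT and 2141 (169 CPM) in 3CK. Of these 2141 UMIs, 573 lay in 1 cell. The cells of neither gate held markers of both kinds. VIM stood at 1137 and 2376 CPM in CNT and 3CK, DCN at 251 and 217 CPM, EPCAM at 96.3 and 76.3 CPM and CDH1 at 118 and 130 CPM. Across the 107 thinned mesenchymal 3CK cells the genes whose levels were most like IL6 were the neutrophil chemokine genes CXCL1 (Pearson r 0.61) and CXCL8 (0.59) and the interleukin gene IL1B (0.54), out of 3261 genes compared. These cells come from 1 library and share its thinned depth, so the values describe that library.

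IL11, a stromal interleukin of the same family, had the next widest gap in 3CK, 5.48 (5.27 to 5.69), and a gap of 3.95 in CNT. With equal weight per cell these were 4.27 and 2.94. In epithelial cells it was at 2.06 and 3.22 CPM, and in mesenchymal cells at 31.9 and 144 CPM. The mesenchymal log2 ratio was 2.17 (2.03 to 2.31), while the epithelial one was 0.65 (0.35 to 0.95), or 1.21 without collagen-bearing epithelial cells. The epithelial level was low in both libraries, and the share of thinned epithelial cells with a UMI was 1.98% (1.23 to 3.01) in CNT and 1.80% (0.99 to 3.01) in 3CK. In mesenchymal cells the share was 11.9% (8.54 to 15.9) in CNT and 19.6% (12.6 to 28.4) in 3CK, so the intervals overlap although the level was 4.51-fold higher. Much of that level came from few cells: of the 1310 UMIs in 3CK mesenchymal cells, the 13 highest cells held 83.5%, and 1 cell held 210. Cells of neither gate had 20 UMIs of IL11 in CNT (3.33 CPM) and 622 in 3CK (49.2 CPM), a log2 ratio of 3.89 (3.25 to 4.61). These 622 were 28.8% of the IL11 UMIs of 3CK, and 163 of them lay in 1 cell.

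IL11 was seen in 16 of the 54 thinned 3CK mesenchymal cells with IL6 (29.6%, 18.0 to 43.6) and in 9.43% (3.13 to 20.7) of those without it. Cycling mesenchymal cells, with at least 1 UMI of MKI67 and TOP2A per 10000, had IL11 at 243 CPM in 3CK against 109 CPM in the other mesenchymal cells, with 210 of the 570 UMIs of the cycling cells in 1 cell. IL6 was at 683 and 735 CPM in the same 26 and 98 cells. In CNT the order for IL11 was the other way, at 17.7 CPM in 81 cycling and 34.9 CPM in 493 other mesenchymal cells.

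LIF, the remaining IL6ST cytokine of the set, went a different way. In epithelial cells of CNT and 3CK it stood at 2.76 and 9.17 CPM, a log2 ratio of 1.73 (1.51 to 1.97). In mesenchymal cells it was at 12.5 and 10.2 CPM, with a ratio of -0.29 and an interval of -0.65 to 0.06 that includes 0, or -0.95 with equal weight per cell. The mesenchymal excess over epithelium was therefore 2.18 on the log2 scale in CNT (1.91 to 2.45) and 0.15 in 3CK (-0.18 to 0.47). At 5000 UMIs per cell LIF was seen in 0.85% (0.39 to 1.60) of CNT and 5.03% (3.60 to 6.81) of 3CK epithelial cells, and in 4.38% and 4.67% of mesenchymal cells.

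**Figure D3:**
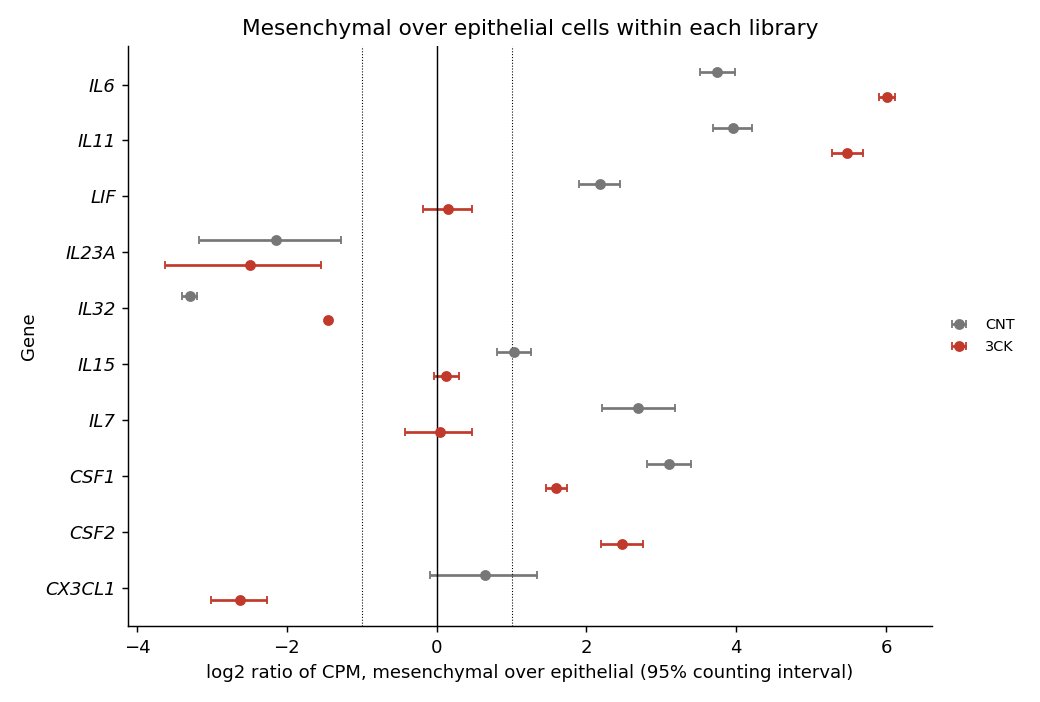
Log2 ratio of CPM, mesenchymal over epithelial cells, within CNT (grey) and within 3CK (red), with 95% counting intervals and dotted lines at a 2-fold difference. IL6 and IL11 lie above 5 in 3CK, LIF, IL15 and IL7 lie near 0 in 3CK after higher values in CNT, and IL23A, IL32 and CX3CL1 lie below -1 in 3CK. CSF2 has no CNT value because it had 3 or fewer UMIs in both compartments.

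Within 3CK, 4 of the 10 genes were at least 2-fold higher in mesenchymal than in epithelial cells (IL6, IL11, CSF1 and CSF2), where 19% of 17177 genes were, and 3 were at least 2-fold lower (IL23A, IL32 and CX3CL1), where 16.8% were. The same contrast in CNT had 6 of 9 tested members higher, where 26.1% of genes were, and 2 lower, where 15.1% were. IL15, at 1.03, was one of the 6 and fell under the 2-fold line with no filter (0.98), the stricter filter (0.89), scaling by trimmed mean of M values (TMM; 0.65), other totals (0.92) and equal weight per cell (0.52). Of the genes counted as higher or lower, IL7 in CNT and IL23A in both libraries passed the minimum level through the higher compartment alone. The median of the members was 2.18 in CNT and 0.14 in 3CK, against 0.32 and 0.07 for all tested genes. Under TMM scaling, which moved these contrasts by -0.39 in CNT and -0.18 in 3CK, LIF (-0.02), IL15 (-0.05) and IL7 (-0.14) changed sign in 3CK.

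IL32 was the most abundant of the set. This inflammatory cytokine gene, which rodents lack, stood at 402 and 3576 CPM in epithelial cells, and at 40.9 and 1308 CPM in mesenchymal cells. Both compartments were higher in 3CK, by a log2 ratio of 3.15 (3.14 to 3.17) in epithelial and 5.00 (4.89 to 5.10) in mesenchymal cells, the latter 4.07 with equal weight per cell. It was seen in nearly all treated cells: 756 of 776 thinned epithelial cells (97.4%, 96.0 to 98.4) and 87 of 107 mesenchymal cells (81.3%, 72.6 to 88.2), against 60.8% and 10.0% in CNT. The epithelial excess over mesenchyme narrowed from a log2 value of -3.30 (-3.40 to -3.20, mesenchymal over epithelial) in CNT to -1.45 (-1.48 to -1.42) in 3CK. With equal weight per cell it was -1.87 and -1.13, so much of the narrowing depends on that choice. Across 776 thinned epithelial 3CK cells IL32 was most like S100A11 (Pearson r 0.64), PFN1 (0.63) and TMSB10 (0.62), out of 3222 genes, all cells being of 1 library. In mesenchymal cells it was most like S100A11 (0.50), MYL12B (0.42) and PLAAT4 (0.42).

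IL23A, the IL-23 chain, was an epithelial transcript of low level. It had 189 and 388 UMIs in epithelial cells of CNT and 3CK (2.48 and 5.53 CPM), and 11 and 9 UMIs in mesenchymal cells (0.56 and 0.99 CPM). The epithelial log2 ratio was 1.16 (0.90 to 1.42), and the mesenchymal counts were under the 1 CPM minimum. With equal weight per cell the epithelial ratio was 2.36, and the CNT contrast of mesenchymal over epithelial cells went from -2.15 to 0.10. Its share of thinned epithelial cells was 0.85% (0.39 to 1.60) in CNT and 2.96% (1.89 to 4.41) in 3CK, and in 3CK mesenchymal cells it was seen in 0 of 107 at this depth, where 3 cells would be 2.80%. Without thinning it was seen in 6 of 124 of those cells (4.84%). The partner chain gene IL12B had 1 UMI in CNT and 4 in 3CK.

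The lymphocyte growth factor genes were higher in treated epithelium. IL15 was at 5.99 and 32.7 CPM in epithelial cells of CNT and 3CK, and at 12.3 and 35.8 CPM in mesenchymal cells. Its log2 ratio was 2.45 (2.30 to 2.60) in epithelial and 1.54 (1.30 to 1.79) in mesenchymal cells, so that the 3CK compartments differed by 0.13 (-0.04 to 0.30). In thinned cells IL15 was seen in 4.24% and 14.3% (11.9 to 17.0) of epithelial cells and in 5.00% and 19.6% (12.6 to 28.4) of mesenchymal cells. IL7 was at 0.77 and 5.12 CPM in epithelial cells, a ratio of 2.72 (2.32 to 3.15), or 1.20 with equal weight per cell. In mesenchymal cells it was at 4.99 and 5.27 CPM, with a ratio of 0.08 (-0.45 to 0.59) whose sign changed with the filter or the gates. The mesenchymal excess of IL7 in CNT, 2.69 (2.21 to 3.18), was 1.15 with equal weight per cell.

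CSF1, the macrophage growth factor gene, was higher in both compartments. It was at 1.86 and 22.1 CPM in epithelial cells of CNT and 3CK, and at 16.0 and 66.8 CPM in mesenchymal cells. The log2 ratios were 3.56 (3.32 to 3.82) and 2.06 (1.86 to 2.26), and mesenchymal cells were higher than epithelial cells by 3.10 in CNT and 1.60 (1.46 to 1.74) in 3CK. With equal weight per cell the ratios were 2.79 and 2.91, so their order turned, and the gaps were 1.46 and 1.58. CSF1 was seen in 9.15% (7.21 to 11.4) of thinned 3CK epithelial cells and 30.8% (22.3 to 40.5) of mesenchymal cells, against 0.94% and 7.50% in CNT. The genes most like it across the thinned mesenchymal 3CK cells, RECQL (Pearson r 0.34), MYCBP2 (0.31) and ACAP2 (0.31), were only weakly so.

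CSF2, which encodes GM-CSF, had few UMIs in CNT, with 2 in 2 epithelial cells and 0 in 574 mesenchymal cells, where 3 UMIs would be 0.153 CPM. In 3CK it had 261 UMIs (3.72 CPM) in epithelial and 189 UMIs (20.7 CPM) in mesenchymal cells. These values rest on very few cells. It was seen in 44 of 1398 3CK cells, and 1 epithelial cell held 196 UMIs, or 75.1% of the epithelial count. That cell had 99693 UMIs in all and 4.41 UMIs of EPCAM per 10000. A mesenchymal cell with 5.95 UMIs of collagen per 10000, close to the gate, held 139 of the 189 mesenchymal UMIs. Without the highest cell the epithelial count was 65 UMIs (0.93 CPM, under the 1 CPM minimum) and the mesenchymal count 50 UMIs (5.58 CPM). Set against 3 UMIs over the CNT group, the mesenchymal log2 ratio was at least 7.09, at least 5.19 without the highest cell and at least 5.55 with gates at 2 times the thresholds.

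CX3CL1, whose product is tethered to the cell surface and shed by ADAM10 and ADAM17, was the epithelial gene with the largest ratio after CSF2. It was at 0.81 and 42.6 CPM in epithelial cells of CNT and 3CK (62 and 2985 UMIs), a log2 ratio of 5.71 (5.35 to 6.10), or 4.56 with equal weight per cell. In mesenchymal cells it was at 1.27 and 6.91 CPM (25 and 63 UMIs), a ratio of 2.44 (1.75 to 3.17), or 3.58 with equal weight per cell, and 25 of the 63 UMIs lay in 1 cell. The compartments thus stood at similar levels in CNT, with mesenchymal over epithelial at 0.64 (-0.09 to 1.34), and apart in 3CK, at -2.62 (-3.01 to -2.26). With equal weight per cell these were -0.49 and -1.47. It was seen in 0.47% of thinned CNT and 13.5% (11.2 to 16.1) of 3CK epithelial cells, and in 0 of 320 CNT and 2.80% (0.58 to 7.98) of 3CK mesenchymal cells.

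**Figure D4:**
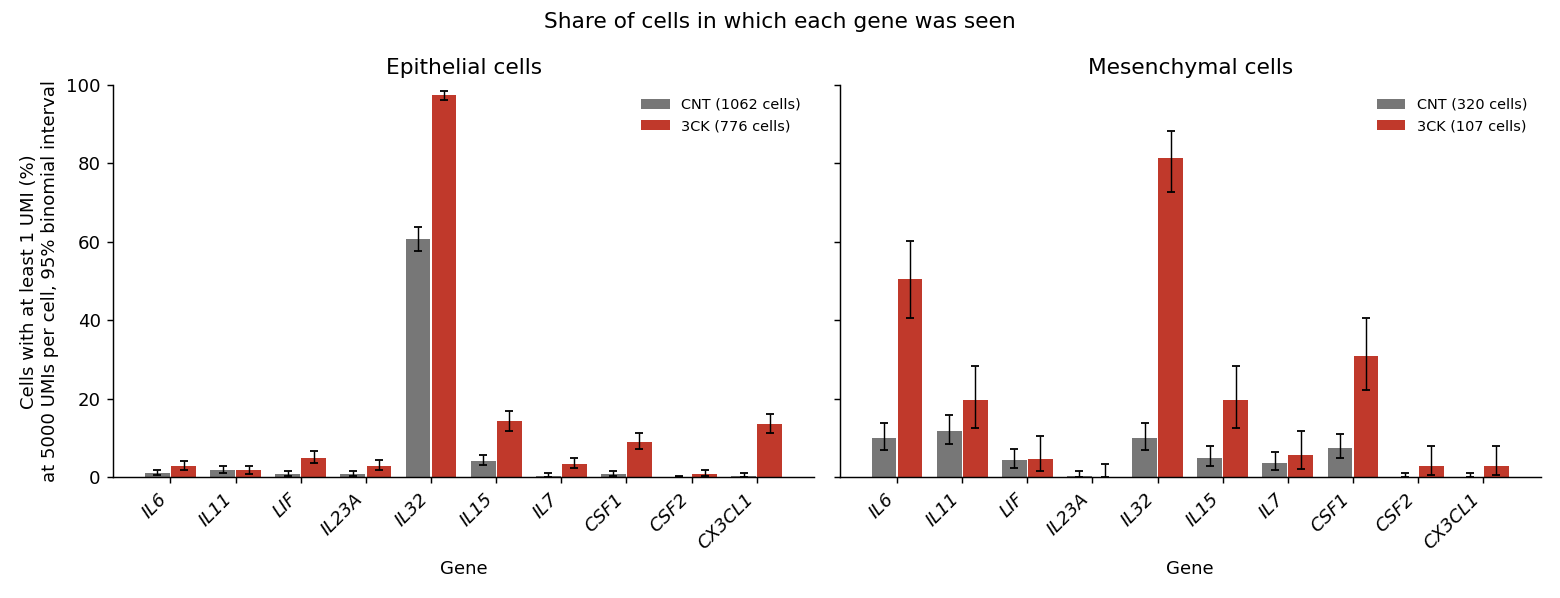
Share of cells with at least 1 UMI of each gene in epithelial (left) and mesenchymal (right) cells of CNT (grey) and 3CK (red), with exact 95% binomial intervals. Cells were thinned to 5000 UMIs, and shallower cells were left out. IL32 was seen in 97.4% of treated epithelial cells, whereas IL6 was seen in 50.5% of treated mesenchymal and 2.84% of treated epithelial cells.

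The number of these genes seen per cell was higher in 3CK. At 5000 UMIs per cell, 2 or more of the 10 were seen in 108 of 1544 CNT cells (6.99%, 5.77 to 8.38) and in 501 of 1063 3CK cells (47.1%, 44.1 to 50.2). Among mesenchymal cells, 3 or more were seen in 4 of 320 in CNT (1.25%) and 38 of 107 in 3CK (35.5%, 26.5 to 45.4). Among epithelial cells they were seen in 6 of 1062 (0.56%) and 75 of 776 (9.66%, 7.68 to 12.0). IL32 alone was seen in 46.0% of all thinned CNT cells and 93.5% of all thinned 3CK cells. Most 3CK cells thus needed only 1 other member to reach 2, and other genes were not compared in this way.

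Transcripts of the genes were spread over cells to very different degrees. In 3CK 50% of CSF2 UMIs lay in 2 cells, of IL11 UMIs in 8 cells and of IL6 UMIs in 18 cells. For LIF, CSF1, IL15 and IL32 the same share took 108, 127, 147 and 175 cells. The highest 1% of cells held 92.4% of CSF2, 64.9% of IL11 and 45.1% of IL6 UMIs, against 6.90% of IL32 UMIs.

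**Figure D5:**
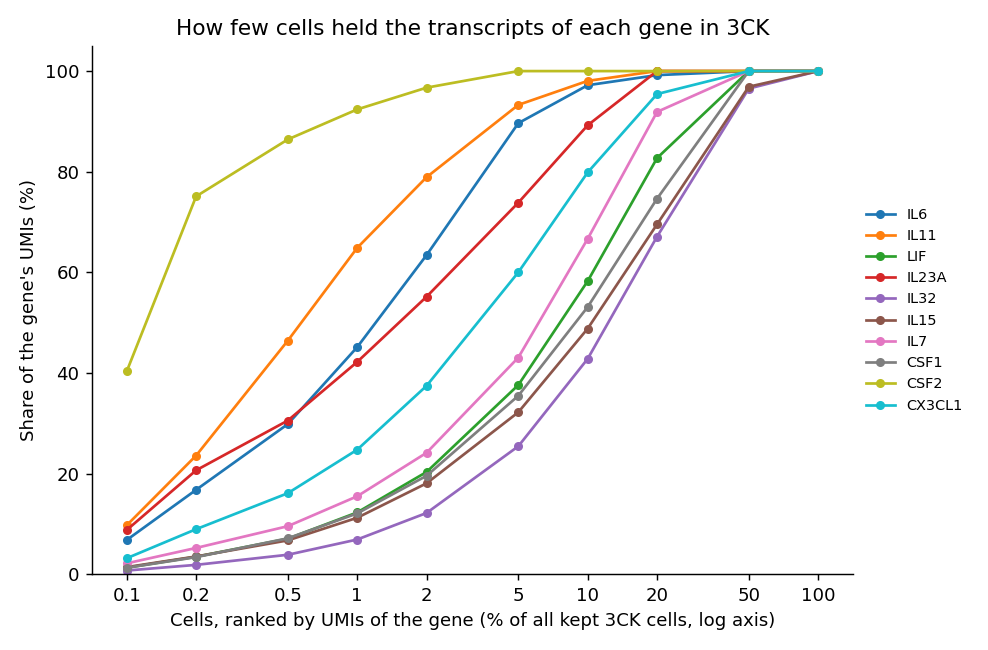
Share of each gene's UMIs in 3CK (vertical axis, percent) held by the cells with most UMIs of that gene (horizontal axis, percent of the 1398 kept cells, log axis), one line per gene. At 1% of cells CSF2, IL11 and IL6 are highest and IL32 is lowest, with 6.90% of its UMIs in those cells.

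Within the 3CK epithelium, levels differed with TTR, the transthyretin gene that is abundant in part of these cells. IL32 was lower in cells below the median of TTR (102 UMIs per 10000) than in the 508 cells at or above it, at 3342 and 3772 CPM. The other members were higher below the median. The share of all genes that were higher there was not computed, so these values do not set the members apart from other genes. IL15 was at 47.7 CPM below and 20.0 CPM above, LIF at 13.1 and 5.87 CPM, and CX3CL1 at 53.6 and 33.4 CPM. For CSF2, 196 of the 250 UMIs below the median lay in 1 cell. Depth moved with this division, with medians of 55668.5 UMIs below and 85013 above, and its part in the difference was not tested. The CNT epithelium, divided at its own TTR median (398 UMIs per 10000), had the same order for IL15, LIF and CX3CL1. There IL15 was at 9.53 CPM below and 4.03 CPM above, LIF at 4.62 and 1.73 CPM, and CX3CL1 at 1.18 and 0.61 CPM. IL32 was at 410 and 398 CPM in CNT, the reverse of its order in 3CK. Median depths in CNT were 4866.5 UMIs below and 59615.5 above. The CHGA gate for enteroendocrine-like cells held 3 cells in 3CK, too few to describe.

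The receptor and partner list, also chosen with earlier results of these data known, holds 28 genes, of which 24 passed the minimum level. Over all kept cells 10 of them were at least 2-fold higher in 3CK (6.96% of all genes were) and 3 at least 2-fold lower (11.3% were), with a median log2 ratio of 0.32. The count was 11 higher and 2 lower of 24 in epithelial cells, where 8.48% and 12.1% of all genes were, and 5 and 2 of 22 in mesenchymal cells, where 6.05% and 16.7% were. IL15RA, which presents IL-15 on the cell surface, was at 3.58 and 67.4 CPM in CNT and 3CK, a log2 ratio of 4.23 (4.08 to 4.39). JAK1 (87.9 and 184 CPM), JAK2 (17.2 and 62.1 CPM), STAT3 (64.4 and 158 CPM), STAT5A (1.56 and 15.5 CPM), the feedback inhibitor gene SOCS3 (23.7 and 50.3 CPM) and OSMR (37.5 and 83.9 CPM), the oncostatin M receptor gene, were also above the 2-fold line. The ratio of each of these genes and of IL15RA was larger by value in epithelial than in mesenchymal cells, a difference that was not tested. It was 5.00 and 3.17 for IL15RA, 3.50 and 2.22 for STAT5A, 1.42 and 0.19 for JAK1, 2.27 and 0.16 for JAK2, 1.61 and -0.05 for STAT3, 1.38 and 0.31 for SOCS3, and 1.96 and -0.04 for OSMR. With TMM scaling the mesenchymal values of STAT3 and OSMR were 0.13 and 0.14. These genes were taken for a ratio above the 2-fold line over all kept cells. The epithelial gate held 74.8% of the UMIs of those cells in CNT and 76.3% in 3CK. A larger epithelial ratio was thus partly set by the choice, and the share of all genes with this order was not computed.

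The shared and LIF receptor chains were lower. IL6ST stood at 228 and 108 CPM, with a log2 ratio of -1.09 (-1.12 to -1.05), and LIFR stood at 211 and 91.7 CPM, with a ratio of -1.20 (-1.24 to -1.17). CSF1R, the receptor gene for CSF1, had the smallest ratio among the 24 genes that passed the minimum, -1.41 (-1.73 to -1.10), at 3.27 and 1.23 CPM. IL6R was at 36.5 and 22.1 CPM, a ratio of -0.72. Within compartments the LIFR ratio was -1.08 in epithelial and -1.39 in mesenchymal cells, and that of IL6ST was -0.80 and -1.33.

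The remaining members of that list at 10 CPM or more differed less. IL2RG was at 58.5 and 67.5 CPM, IL7R at 9.97 and 11.8 CPM, TYK2 at 12.8 and 14.3 CPM and PTPN11 at 59.3 and 48.3 CPM. ADAM10 was at 103 and 97.5 CPM and ADAM17 at 28.3 and 33.3 CPM. CX3CR1, the receptor gene for CX3CL1, had 7 and 1 UMIs.

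The list of 30 other interleukin and growth cytokine genes was chosen in the same way. Of these, 12 passed the minimum level over all cells. Among them 4 were at least 2-fold higher (6.96% of all genes were) and 1 at least 2-fold lower (11.3% were). CSF3, which encodes the granulocyte growth factor, had the largest ratio, at 0.157 and 87.0 CPM (9.11, 8.41 to 9.92). TSLP, an alarmin gene, had the smallest over all cells, at 1.75 and 0.479 CPM (-1.87, -2.38 to -1.38). Within the gates the smallest ratio among tested genes of this list was that of another gene, IL33 in epithelial and IL24 in mesenchymal cells. The part of the differing cell shares in the TSLP value was not tested. EBI3, a chain of the IL-12 family, was at 6.98 and 44.8 CPM, VEGFA at 30.5 and 51.1 CPM and the stem cell factor gene KITLG at 20.0 and 31.0 CPM.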

How the data were processed

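The files deposited by the authors are matrices of raw UMI counts, made per the file headers with Cell Ranger 7.1.0, with the build GRCh38 per the submitters' processing notes. The annotation version is not given in the sources used here. Barcodes with at least 500 genes and at most 20% mitochondrial UMIs were kept, and doublets were removed by Scrublet score (scanpy 1.11.5) at 0.8% per 1000 barcodes, which took 52 CNT and 16 3CK barcodes. This left 2487 of 3257 and 1398 of 1641. UMIs were summed over cells and scaled to CPM. Log2 ratios carry an exact conditional binomial interval, levels an exact Poisson interval and shares an exact binomial (Clopper-Pearson) interval, all at 95%. A group with 0 UMIs was set to 3 UMIs over the group as a floor. For shares, cells with at least 5000 UMIs were thinned to that number. The 943 cells of CNT and 335 of 3CK that were shallower stayed out. CNT epithelial cells below the TTR median had a median of 4866.5 UMIs, against 59615.5 at or above it. The CNT epithelial shares thus lean to cells with more TTR, where IL15 and LIF were lower. The part of this in the share differences was not tested. Named are the 10 members, list genes that reached 10 CPM in CNT or 3CK and those with the largest and smallest ratios. The marker genes, IL12B, CX3CR1 and the sub-range genes were named after their values were seen or as markers. Likeness is the Pearson correlation over thinned 3CK cells, for members seen in at least 20% of a compartment's cells, and its 3 highest genes were taken. CSF1 in mesenchymal cells, the other member that met this, had no gene above 0.34. The members and lists were chosen with earlier results of these data known. TMM factors came from edgeR 4.0.16. The ratio and interval code was tested on simulated data.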

Additional observations from a re-analysis of the deposited data

Results flagged for a closer look

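Among the genes named by the rule, the log2 ratio of 3CK to CNT had opposite signs in epithelial and in mesenchymal cells for LIF, KITLG, OSMR, STAT3, ADAM17 and ADAM10. The same held for JAK3, at 1.24 (0.96 to 1.53) and -0.52 (-0.88 to -0.16), and STAT5B, at 0.10 and -0.86, of the receptor list, which were under the level for naming and are given after their values were seen. The difference between compartments was not tested, since each is 1 library per group. The share of all genes with opposite signs was not computed. Over all tested genes the median ratio was 0.01 in epithelial cells (quartiles -0.45 and 0.38) and -0.21 in mesenchymal cells (-0.71 and 0.19). LIF was at 1.73 in epithelial and -0.29 in mesenchymal cells. KITLG was at 0.75 (0.66 to 0.85) and -0.93 (-1.25 to -0.62), with both intervals away from 0. OSMR was at 1.96 and -0.04, and STAT3 at 1.61 and -0.05, where the mesenchymal value turned to 0.14 and 0.13 with TMM scaling. ADAM17 was at 0.35 and -0.19, and ADAM10 at 0.024 (-0.025 to 0.073) and -0.33. With totals that omit mitochondrial genes, ribosomal genes and the 50 genes of highest level, the epithelial value of ADAM10 was -0.09.

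For CX3CL1 the ratio of mesenchymal to epithelial cells had opposite signs in the 2 libraries, at 0.64 in CNT and -2.62 in 3CK. The CNT interval, -0.09 to 1.34, included 0, and the CNT value was -0.49 with equal weight per cell. This difference was not tested either.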

How the results depend on the processing

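Settings tried were an open and a stricter cell filter (1000 genes and 10% of UMIs mitochondrial), cells with at least 10000 UMIs, no removal of doublets, TMM scaling, totals without the 50 most abundant, mitochondrial and ribosomal genes, equal weight per cell, a minimum of 10 CPM and 2 other gates. One more, without the cell that held most UMIs of a gene, was chosen after seeing the data. Across them the count of genes at least 2-fold higher in 3CK ran from 7 to 10 over all cells, 5 to 10 in epithelial and 6 to 7 in mesenchymal cells, and the count higher in mesenchymal than epithelial 3CK cells was 4 in each. The epithelial count was 5 at the 10 CPM minimum, where fewer genes were tested. Of 503 values of single genes, 1 that was past the 2-fold line changed sign. It was IL23A, mesenchymal over epithelial in CNT, at 0.10 with equal weight per cell. No CNT mesenchymal cell had more than 1 UMI of IL23A, and the highest stood at 6.32 UMIs per 10000, which is 1 UMI in a shallow cell. The part of that cell in the change was not tested. Equal weight per cell moved 24 of 49 values by over 1.5 times. It counts shallow cells, where 1 UMI is a large share, as much as deep ones. In CNT epithelial cells the highest cell had 12.2 UMIs per 10000 of CSF1, 12.2 of CX3CL1 and 29.3 of IL7, with medians of 0. The part of such cells in the moved values was not tested. The IL6 ratio over all cells, 3.52, became 2.55, and IL6 and IL11 in 3CK, mesenchymal over epithelial, went from 6.01 and 5.48 to 4.85 and 4.27. Gates at 2 times the thresholds gave 6.96 and 6.23, and 1.01 in place of 2.48 for CSF2. No paired analysis was possible because each group is 1 library and the labels give no replicate numbers. Single cells limit CSF2, low counts limit IL23A, and 124 cells limit the mesenchymal 3CK values.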
